A study of Mus musculus with 12 samples.

Results

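The genes described here are 10 members of the common gamma chain cytokine pathway, among 23937 genes measured by RNA sequencing in CD8 T cells from mouse brain and blood. They were chosen by name: the receptor chains Il2ra, Il2rb, Il2rg, Il15ra and Il21r, the kinase Jak3, and the suppressors Cish, Socs1, Socs2 and Socs3. All 10 passed the filter on low values and were tested. CD8 T cells, which kill infected or damaged cells, were obtained by fluorescence-activated sorting and their RNA was amplified with a kit for very small inputs. The 12 libraries came from brains taken 30 days after stroke (3 libraries), brains taken 3 days after stroke (3), brains of naive mice (3) and blood of naive mice (3). All 4 groups carry the cell type label CD8 T cells. No source used here gives the stroke model or the strain, sex and age of the mice. The labels' protocol speaks of dissociated spleens, whereas tissue is labelled brain or blood, and groups follow the tissue label. Nothing in the labels ties the 3 libraries of a group to separate mice, so p-values measure the spread between these libraries, which may be technical.

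The common gamma chain, encoded by Il2rg, is shared by the receptors for interleukins 2, 4, 7, 9, 15 and 21, and its loss causes X-linked severe combined immunodeficiency. Il2rb encodes the beta chain that signals for both IL-2 and IL-15, and Il2ra and Il15ra encode the private alpha chains that raise affinity for one or the other. Ligand binding activates JAK1 and JAK3, which phosphorylate STAT proteins, mainly STAT5 for IL-2 and IL-15 and STAT3 for IL-21. STATs then switch on Cish and the Socs genes, whose SH2 domain proteins damp the same receptors. IL-15 maintains memory CD8 T cells, and CD8 T cells that reside in the tissue are known from the brain.

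Libraries held 1104490 to 21014171 reads, and values are given as CPM, reads per-million of a scaled library size. A count of 0 allows up to 3 reads, which is worth 0.298 to 1.65 CPM depending on the library, and this detection limit covers counting error only. The libraries fell into 5 of low and 7 of high background by the reads that fell on 1484 genes of olfactory, vomeronasal or taste receptors, a split made after the data were seen. All 3 naive brain libraries and replicate 1 of day 30 and of day 3 had low background, and replicates 2 and 3 of both times and all 3 blood libraries had high background. The low background libraries held 3469973 to 21014171 reads and the high background libraries 1104490 to 2141262, so background and depth cannot be told apart. T cell marker genes (10 of 12 listed were used, including Cd3e, Cd8a and Lck) held 0.451% to 1.21% of reads at day 30, 0.0689% to 0.226% at day 3, 0.603% to 0.820% in naive brain and 0.317% to 0.447% in naive blood. Microglia markers held 0.199% to 0.565%, 0.405% to 1.503%, 1.07% to 2.20% and 0.0192% to 0.0455% in the same order, so each day 3 and each naive brain library held more of them than of T cell markers. Monocyte and macrophage markers held 0.302% to 0.471%, 0.409% to 1.01%, 0.287% to 0.386% and 0.0551% to 0.191%. No marker of T cells or microglia was at 0 in any library, and 1 monocyte and macrophage marker was at 0 in day 30 replicate 3 and in blood replicate 1. In bulk RNA of this kind, fewer cells of a type and less RNA per cell cannot be told apart.

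**Figure D1:**
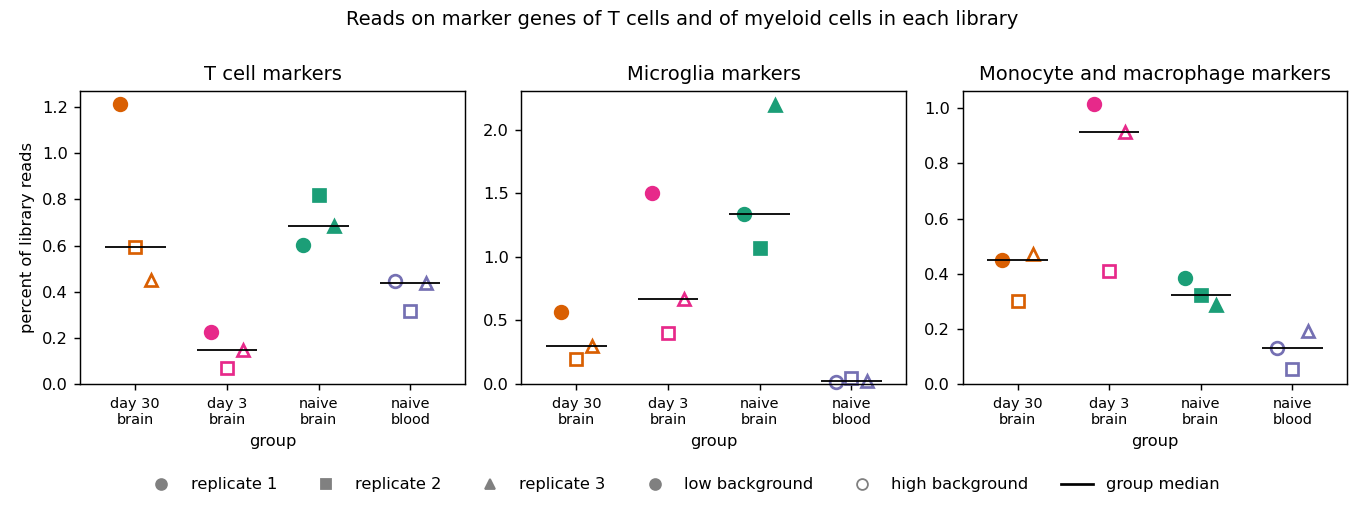
Percent of library reads on marker genes of T cells, of microglia and of monocytes and macrophages (y axes, linear) in the 4 groups (x axis). Each point is 1 library, filled for low and open for high background, and lines are group medians. T cell markers lie at or below 0.226% in the 3 day 3 libraries and at or above 0.317% in the other 9.

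Il2rg (chrX:101264378-101268255 in mm10, minus strand), the common chain, was the most abundant of the 10 genes per unit of length. It had 2867, 444 and 595 CPM in the day 30 libraries, 733, 102 and 185 CPM at day 3, 827, 1690.0 and 1398 CPM in naive brain, against 468, 274 and 404 CPM in naive blood. Every naive brain library was above every day 3 and every blood library, while day 30 spanned the range of naive brain. Per kilobase of the longest coding transcript, Il2rg had the highest median of the 10 genes in each group, at 356, 111, 837 and 242 CPM per kb at day 30, day 3, naive brain and naive blood. Il2rb (chr15:78479256-78495271, minus strand), the chain that IL-2 and IL-15 share, had 676, 138 and 84.5 CPM at day 30, 131, 22.7 and 24.6 CPM at day 3, 156, 679 and 569 CPM in naive brain, against 29.7, 26.3 and 37.0 CPM in naive blood. All 3 naive brain libraries and all 3 day 30 libraries exceeded blood, and day 3 lay below naive brain throughout. Day 3 replicate 1, the low background library of its group, was the highest of its group for Il2rb and Il2rg, and so was replicate 1 at day 30. NK cells also carry the beta chain, and 5 NK cell markers held 0.0174% to 0.0649% of reads at day 30, 0.00550% to 0.0100% at day 3, 0.0105% to 0.0240% in naive brain and 0.00664% to 0.0148% in blood. Of these 5 markers 1 was at 0 in day 3 replicate 1 and in each of replicates 1 and 2 of naive brain and of blood. In replicate 1 of naive brain and of blood it was Ncr1, and the part of NK cells in the levels of Il2rb was not tested.

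The private alpha chains differed from each other. Il2ra (chr2:11642807-11693193, plus strand), the high-affinity IL-2 receptor chain and a marker of recent activation and of regulatory T cells, had 8.61, 19.3 and 30.3 CPM at day 30, 14.6, 11.4 and 8.03 CPM at day 3, 5.81, 0.754 and 0.695 CPM in naive brain, against 20.0, 10.4 and 23.6 CPM in naive blood. It ran opposite to the other receptor chains, with all 3 naive brain libraries below all 9 others. These levels rest on few reads, 38, 42 and 67 in day 30 replicates 1 to 3, against 15, 7 and 7 in naive brain. Helper and regulatory T cell markers (Cd4, Foxp3, Ikzf2, Ctla4 and Cd40lg) held 0.0161% to 0.0354% of reads at day 30, 0.0115% to 0.0149% at day 3, 0.00975% to 0.0255% in naive brain and 0.00671% to 0.0113% in blood, Cd40lg being at 0 in day 30 replicates 2 and 3 and in blood replicate 1, and their part in the levels of Il2ra was not tested. Il15ra (chr2:11705290-11734317, plus strand), which binds IL-15 and can present it to neighbouring cells, had 132, 11.02 and 52.8 CPM at day 30, 42.8, 9.55 and 14.5 CPM at day 3, 76.7, 128 and 63.7 CPM in naive brain, against 1.08, 11.5 and 9.50 CPM in naive blood. The Il15ra value of blood replicate 1 is 2 reads, so it lies under the detection limit. Naive brain was again above day 3 and blood in every library, and day 30 overlapped all 3 other groups. By median per kilobase Il2ra stood last of the 10 genes in naive brain, at 0.171 CPM per kb, and ninth at both times after stroke.

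Il21r (chr7:125603429-125633570, plus strand), the private chain for IL-21, had 181, 4.13 and 10.4 CPM at day 30, 65.9, 84.6 and 31.1 CPM at day 3, 276, 373 and 330.3 CPM in naive brain, against 10.8, 18.65 and 29.6 CPM in naive blood. The lowest naive brain library lay above the highest library of each other group. Day 30 replicate 1 was far above its 2 partners, which lay below every blood library. Jak3 (chr8:71676296-71690575, plus strand), the kinase bound to the common gamma chain, had 73.2, 87.2 and 77.2 CPM at day 30, 103, 35.9 and 16.1 CPM at day 3, 68.2, 359 and 147 CPM in naive brain, against 46.0, 23.0 and 21.8 CPM in naive blood. Day 30 and naive brain lay above blood in every library, and day 3 overlapped all 3 other groups. Jak3 overlaps Insl3 on the same strand, and the listed Insl3 values, 32.6, 79.0 and 70.9 CPM at day 30 and 39.1, 82.4 and 48.8 CPM in naive brain, mean that reads could have been divided between the 2 genes.

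Among the suppressors, Cish (chr9:107296026-107302784, plus strand) encodes CIS, which is induced by STAT5 and restrains IL-2, IL-15 and T cell receptor signalling. Promoter sequences were taken from RefSeq (GRCm38.p6), which held entries for 8 of the 10 genes and none for Il2rb and Socs2. They are shown for the 3 suppressors whose windows, 250 bases before to 50 bases after the RefSeq start, held a match to a STAT or interferon regulatory factor core, and which were higher in naive brain than in blood. TTCNNNGAA is the core bound by STAT dimers and reads the same on both strands. It had 2 matches at the Cish start, on the plus strand at chr9:107296654-107296683, where capitals mark the matches beginning 1 and 12 bases from the RefSeq start.
Cish: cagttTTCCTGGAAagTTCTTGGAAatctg
Such a match occurred in 8.3% of 32851 mouse promoter windows of the same length, and 2 or more in 0.457%. This start lies inside the GENCODE gene span. Cish had 528, 81.7 and 46.5 CPM at day 30, 61.8, 4.09 and 16.6 CPM at day 3, 196, 722 and 259 CPM in naive brain, against 3.24, 12.6 and 18.3 CPM in naive blood. Naive brain was above day 3 and blood in every library, and day 30 was above blood in every library. The day 3 replicates 2 and 3 lay within the range of blood.

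Socs1 (chr16:10782240-10785536, minus strand) encodes an inhibitor of JAK kinases that is induced by interferons and by IL-2. Its 250 bases before the start, on the minus strand at chr16:10785537-10785786, held no STAT core but 2 overlapping matches, in capitals, to GAAANNGAAA, the repeat bound by interferon regulatory factors, at 83 and 77 bases before the start. This motif was searched on both strands after the sequence had been seen.
Socs1: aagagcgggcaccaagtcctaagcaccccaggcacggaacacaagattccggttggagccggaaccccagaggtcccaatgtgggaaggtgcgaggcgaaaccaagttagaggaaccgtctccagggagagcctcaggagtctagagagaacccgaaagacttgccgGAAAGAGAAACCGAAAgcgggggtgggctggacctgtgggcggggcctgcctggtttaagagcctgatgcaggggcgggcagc
It occurred in 3.44% of the same windows, and 2 or more matches in 0.225%. Socs1 had 132, 20.2 and 19.9 CPM at day 30, 61.8, 2.73 and 4.82 CPM at day 3, 94.2, 154 and 205 CPM in naive brain, against 0.541, 1.10 and 3.17 CPM in naive blood. The blood values are 1, 2 and 9 reads, so the first 2 lie under the detection limit. Day 30 and naive brain were above blood in every library, and naive brain was above day 3 in every library.

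Socs3 (chr11:117966079-117970047, minus strand) encodes the main inhibitor of gp130 cytokine receptors such as that for IL-6 and is strongly induced by STAT3. The 250 bases before its RefSeq start, which lies inside the GENCODE gene span, on the minus strand at chr11:117969367-117969616, held 1 STAT core, in capitals, 154 bases before the start.
Socs3: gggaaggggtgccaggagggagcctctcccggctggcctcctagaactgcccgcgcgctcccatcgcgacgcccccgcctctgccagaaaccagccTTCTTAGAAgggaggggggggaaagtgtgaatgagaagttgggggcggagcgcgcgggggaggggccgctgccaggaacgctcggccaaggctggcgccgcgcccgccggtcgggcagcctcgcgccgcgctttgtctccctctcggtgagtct
The windows of Il2ra, Il2rg, Il15ra, Il21r and Jak3 held neither motif, which says only that these letters were not there. Socs3 had 120.1, 31.2 and 71.4 CPM at day 30, 199, 104 and 31.1 CPM at day 3, 172, 208 and 622 CPM in naive brain, against 5.41, 4.94 and 5.63 CPM in naive blood. Each of the 9 brain libraries was above each blood library. The blood values lie close together but rest on 10, 9 and 16 reads. Socs2 (chr10:95385362-95417180, minus strand), best known as the inhibitor of growth hormone signalling and also a STAT5 target, had 59.1, 24.3 and 5.42 CPM at day 30, 65.6, 13.2 and 5.89 CPM at day 3, 46.1, 7.32 and 15.9 CPM in naive brain, against 5.95, 10.4 and 0.704 CPM in naive blood. Its 4 groups overlapped throughout, and replicate 1, of low background, was the highest in each brain group.

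**Figure D2:**
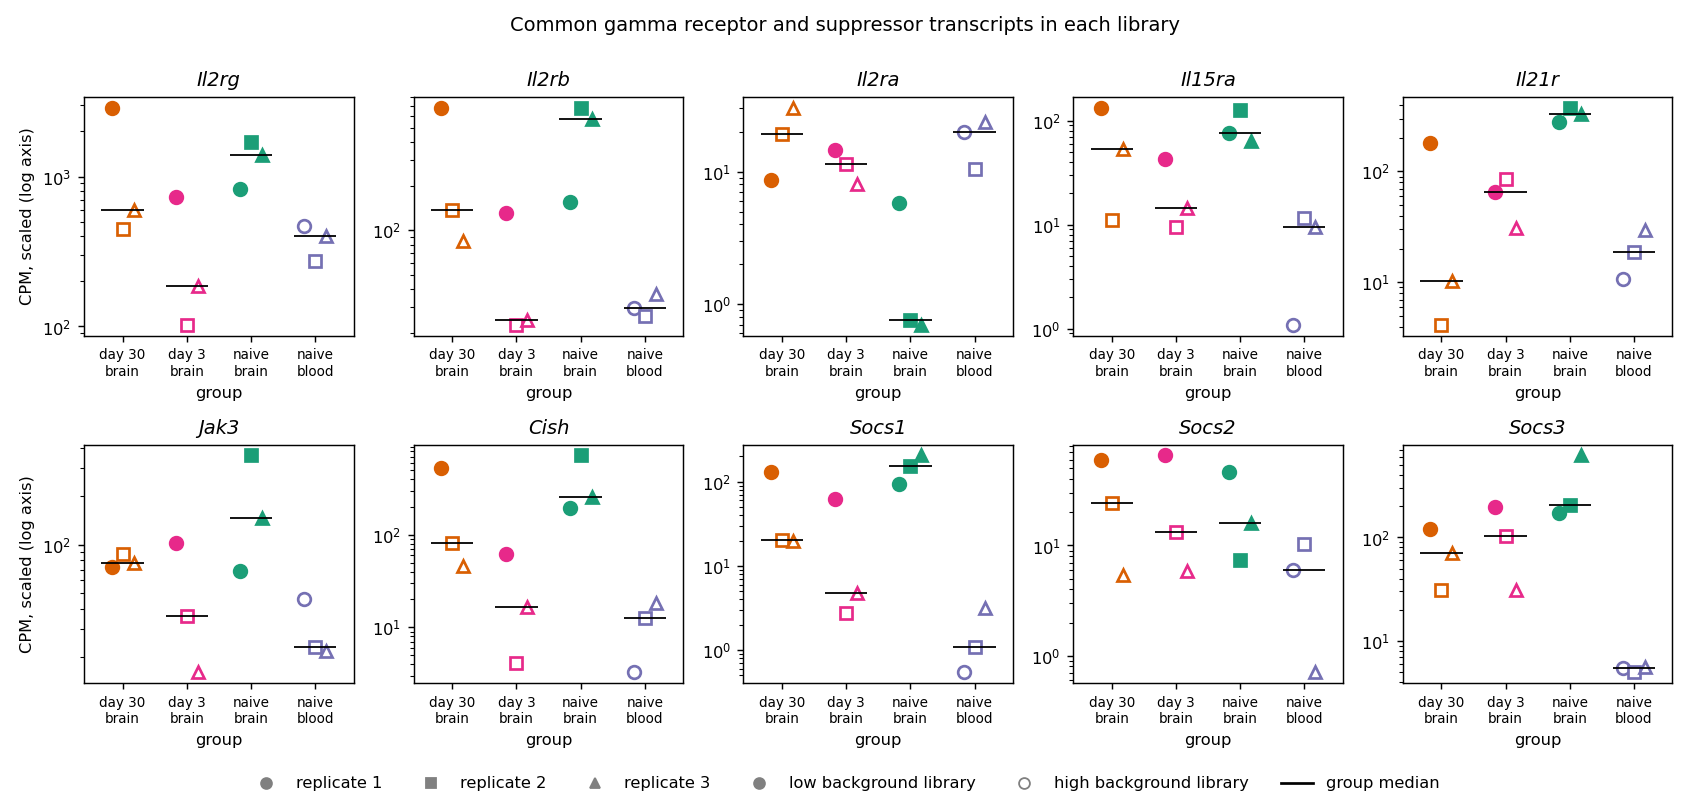
CPM of the 10 genes (y axes, log scale) in the 12 libraries by group (x axes). Shapes are replicates, filled points are libraries of low background, open points of high background, and lines are group medians. Naive brain lies above blood in every library for 8 genes, and Il2ra is the exception below it.

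Brain and blood of naive mice were compared to ask how CD8 T cells differ between the tissues without stroke. In naive brain 6 of the 10 genes rose relative to naive blood and none fell, where 6.61% of all 22352 genes tested were called higher and 7.59% were called in either direction (Benjamini-Hochberg adjusted p under 0.05). The suppressors Socs1, Socs3 and Cish had the largest differences, followed by the receptor chains Il21r, Il15ra and Il2rb. On the log2(CPM + 1) scale, which understates changes of low genes, Socs1 was higher by 5.93 ± 1.01 (SE, adjusted p = 2.97e-05), Socs3 by 5.48 ± 0.83 (adjusted p = 2.58e-06) and Cish by 5.01 ± 0.90 (adjusted p = 7.1e-05). Il21r was higher by 4.08 ± 0.89 (adjusted p = 0.00131), Il15ra by 3.74 ± 0.95 (adjusted p = 0.00712) and Il2rb by 3.63 ± 0.80 (adjusted p = 0.00149). The 4 others did not pass: Jak3 at 2.39 ± 0.82 (adjusted p = 0.0564), Socs2 at 1.87 ± 1.08 (adjusted p = 0.257), Il2rg at 1.74 ± 0.70 (adjusted p = 0.105) and Il2ra at -2.73 ± 1.07 (adjusted p = 0.0992). Il2ra was called lower in naive brain with unscaled CPM and with DESeq2, its adjusted p over 11 alternatives running from 0.00844 to 0.9995.

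The median difference of the 10 genes was 3.68, against -0.37 over all genes tested. Groups did not overlap for 8 genes that were above blood, where 15.6% of all genes were, and for Il2ra below it, where 15.2% were. T cell markers moved too, 4 of 10 being called higher (median 1.91), and so did all 12 microglia markers (median 7.01) and 5 of 9 monocyte and macrophage markers. Erythroid markers were called lower in 4 of 5 (median -5.40), with 0.000447% to 0.00568% of reads in naive brain and 0.0237% to 0.734% in blood. The part of these markers in the results was not tested. All naive brain libraries had low and all blood libraries high background, and every naive brain library was deeper than every blood library. Tissue, background and depth therefore cannot be told apart between these 2 groups. With background as a term in a fit of all 12 libraries none of the 6 calls was kept. That fit called 35 of all genes, against 1696 as reported. Il15ra and Il21r missed the threshold with quantile normalization, and Il15ra also with unscaled CPM. Il15ra was also not called without naive brain replicate 2 or without blood replicate 1, and the other 5 were called with each of the 12 libraries left out in turn.

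Divided by T cell marker reads, 4 genes had every brain library above every blood library, which of these 4 held in CPM for Socs3 alone. In CPM day 3 libraries of Il2rb, Cish and Socs1 overlapped blood, and day 3 libraries had the lowest T cell marker shares. Per 1000 T cell marker reads, Socs1 had 4.28 to 7.02 reads at day 30, between 4.79 and 16.97 at day 3, 11.6 to 14.3 in naive brain and 0.155 to 0.958 in naive blood. Socs3 had 6.39 to 18.0 such reads at day 30, between 30.9 and 287 at day 3, 15.8 to 43.4 in naive brain and 1.55 to 2.57 in naive blood. Cish had 11.7 to 28.1, 11.3 to 16.97 and 18.1 to 54.9 in the brain groups in that order, and 0.930 to 6.58 in blood. The gene completing the 4, Il2rb, had 19.3 to 62.7 over the 9 brain libraries and 8.52 to 13.7 in blood. Il2rg had 94.3 to 152.5 such reads at day 30, between 184 and 282 at day 3, 97.5 to 129 in naive brain and 122 to 143 in blood. Per T cell marker read every day 3 library was above all others for Il2rg, and the ranges of naive brain and blood overlapped. Such a ratio also counts reads from other cell types, of which the brain libraries held markers, and no test was made on it. A low T cell marker share raises the ratio for any gene. How many of all genes separated the groups on this scale was not computed.

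**Figure D3:**
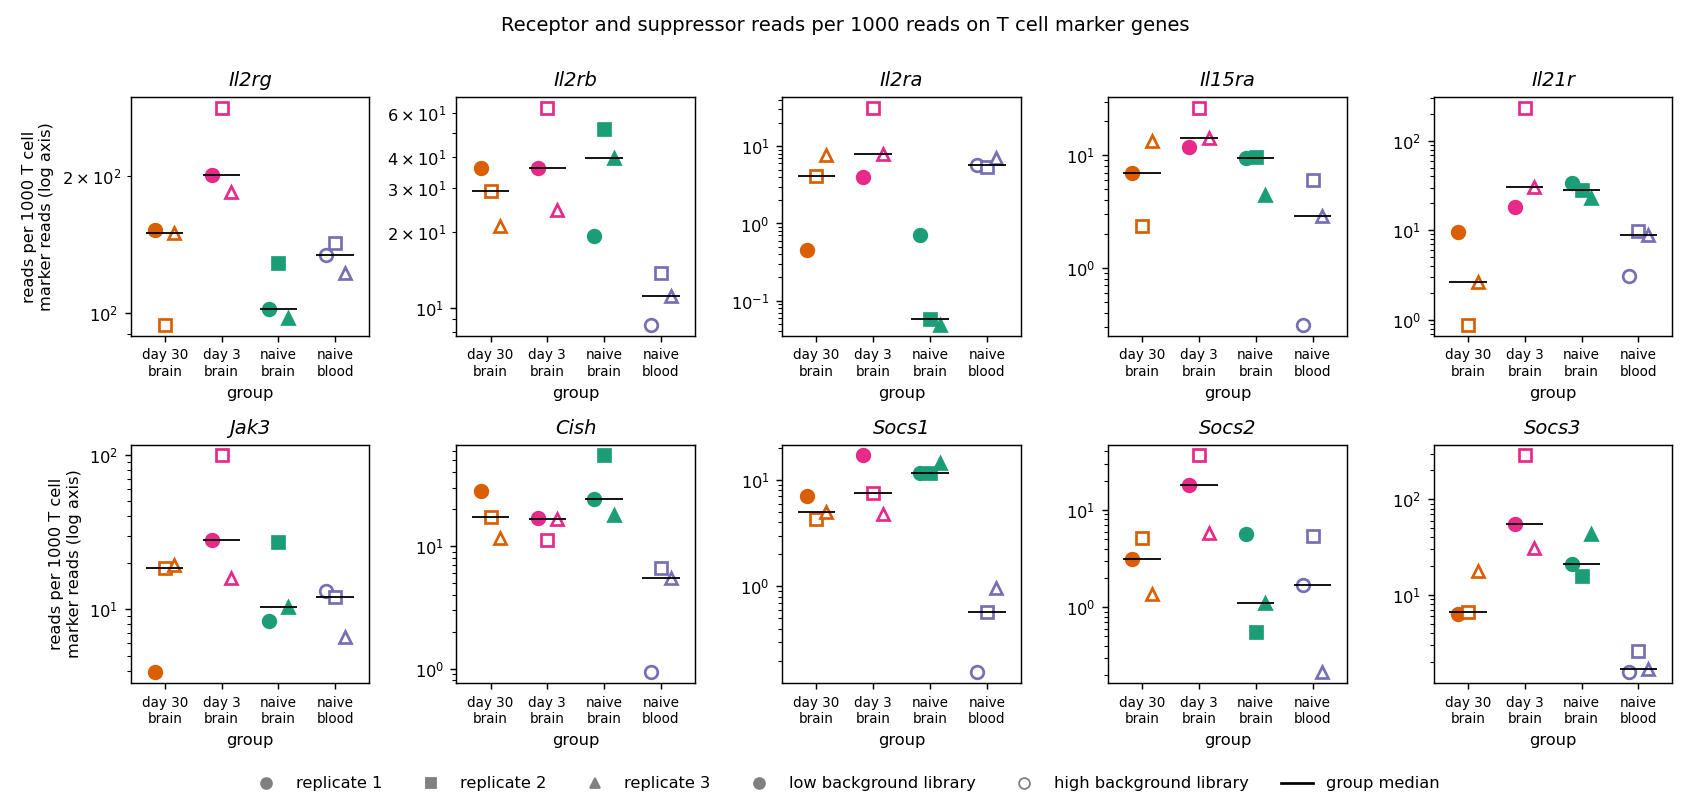
Reads of the 10 genes per 1000 reads on T cell marker genes (y axes, log scale) in the 12 libraries by group (x axes), with shapes, fills and lines as for the plot of CPM. The 9 brain libraries lie above the 3 blood libraries for Il2rb, Cish, Socs1 and Socs3, and Il2rg is highest in the 3 day 3 libraries.

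Brains 3 days after stroke were compared with naive brain for the acute response. At day 3 Cish and Il2rb fell relative to naive brain, 2 of the 10 genes, where 0.564% of all genes were called lower and 0.716% in either direction. Cish fell by 4.23 ± 0.90 on the log2 scale (adjusted p = 0.00807) and averaged 27.5 ± 30.4 CPM at day 3 and 392 ± 287 CPM in naive brain (SD, n = 3 each). Il2rb fell by 3.19 ± 0.80 (adjusted p = 0.0335) and averaged 59.5 ± 62.1 CPM at day 3 and 468 ± 275.5 CPM in naive brain. Socs1 at -3.71 ± 1.01 (adjusted p = 0.0617), Il21r at -2.52 ± 0.89 (adjusted p = 0.209), Il2rg at -2.37 ± 0.70 (adjusted p = 0.0970) and Il15ra at -2.17 ± 0.95 (adjusted p = 0.338) did not pass, although their 3 day 3 libraries lay below all 3 naive brain libraries. Jak3 at -1.94 ± 0.82 (adjusted p = 0.315) and Socs3 at -1.69 ± 0.83 (adjusted p = 0.382) overlapped, as did Socs2 (adjusted p = 0.997). Il2ra was the 1 gene with all day 3 libraries above naive brain, at 2.14 ± 1.07 (adjusted p = 0.389).

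Day 3 lay wholly below naive brain for 6 of the 10 genes, where 8.5% of all genes did, and wholly above for 1, where 8.76% did. The median difference of the 10 genes was -2.27, against 0.50 over all genes tested. T cell markers fell as well, 9 of 10 by the test with a median of -3.27, 2 of 12 microglia markers fell and 1 of 9 monocyte and macrophage markers rose. Erythroid markers were called higher in 4 of 5 (median 4.84) and made up 0.0126% to 0.236% of the day 3 reads, against 0.000447% to 0.00568% of those from naive brain. Their part in the lower levels of Cish and Il2rb was not tested, and per 1000 T cell marker reads Il2rb overlapped, with 24.5 to 62.7 reads in day 3 libraries and 19.3 to 51.6 in naive brain. Cish did not overlap on that scale, with 11.3 to 16.97 reads in day 3 libraries and 18.1 to 54.9 in naive brain, but the ranges lie close. Those day 3 values rest on 195, 9 and 31 Cish reads in replicates 1 to 3, and Cish was already called on the same values. No share over all genes was computed on that scale. In the 1 low background library of day 3, Cish and Socs1 stood at 61.8 CPM each and Il2rb at 131 CPM, still below the 3 naive brain libraries, which are all of low background. Neither the Cish nor the Il2rb call held with background as a term, with quantile normalization or in edgeR's test on the reads recovered from the values. Over all genes these settings called 5, 56 and 17, against 160 as reported, so few genes of any kind were called. The low background libraries leave 1 day 3 library, so a fit of them alone cannot decide. Both calls held in DESeq2, which called 975 of all genes. Without day 3 replicate 2 or without naive brain replicate 2 both were lost, where 23 and 22 of all genes were called. The Il2rb call was also lost without day 3 replicate 3 or without naive brain replicate 3, whereas leaving out replicate 1 of day 3 or of day 30 raised the count to 4 by adding Il2rg and Socs1.

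Brains 30 days after stroke were compared with naive brain for the late response. At day 30 Il21r fell by 3.89 ± 0.89 relative to naive brain (adjusted p = 0.0379), 1 of the 10 genes, where 0.224% of all genes, 50 in number, were called and all of these were lower. With 1 library left out that number ran from 1, without day 30 replicate 2, to 532, without day 30 replicate 1. It averaged 65.0 ± 100.1 CPM at day 30 and 327 ± 48.5 CPM in naive brain (SD, n = 3 each). Il2ra at 2.74 ± 1.07 (adjusted p = 0.408) was the 1 gene wholly above naive brain, where 7.22% of all genes were. Socs3 at -2.11 ± 0.83 (adjusted p = 0.413) and Il21r were wholly below, where 6.03% of all genes were. The other 7 genes overlapped, with adjusted p between 0.594 and 0.971, and the median of the 10 was -0.97, against 0.19 over all genes.

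Per 1000 T cell marker reads Il21r had 0.876 to 9.61 reads at day 30, between 18.1 and 233 at day 3, and 23.0 to 34.1 in naive brain, so day 30 was below both in every library. The share of all genes that did so was not computed. No T cell marker was called in this comparison, and 5 of 12 microglia markers were lower, whose part in the level of Il21r was not tested. Neither edgeR nor DESeq2 on recovered reads called Il21r, nor was it called with quantile normalization or with background as a term. Over all genes these settings called 6, 225, 12 and 0, against 50 as reported, so with background as a term no gene was called. The low background libraries leave 1 day 30 library, so a fit of them alone cannot decide. The Il21r call was lost without day 30 replicate 2 or 3, without day 3 replicate 1 and without any 1 of the naive brain replicates.

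Between day 30 and day 3 limma called none of the 10 genes, where it called 0.255% of all genes, and neither edgeR nor DESeq2 called any. At an unadjusted p under 0.05 limma counted 3 genes, where 5.68% of all genes passed, and all 3 had positive differences. Cish stood at 2.84 ± 0.90 (adjusted p = 0.265), Il2rb at 2.21 ± 0.80 (adjusted p = 0.450) and Il2rg at 1.92 ± 0.70 (adjusted p = 0.456). In the low background pair Cish had 528 CPM at day 30 and 61.8 CPM at day 3, Il2rb had 676 and 131 CPM, and Il2rg 2867 and 733 CPM. In the high background libraries both day 30 values of each of the 3 genes were above both day 3 values. The same held there for Il2ra, Jak3 and Socs1, while Il21r lay below and Il15ra, Socs2 and Socs3 overlapped. Cish, Il2rb and Il2rg were picked from these same values, and the share of all genes so separated was not computed. None of the 10 genes was called in the high background libraries alone, where 15 of all genes were. Over all libraries the groups overlapped for each of the 10 genes. The median of the 10 was 1.09, against -0.15 over all genes, and that of T cell markers was 2.75, with 3 of 10 called higher. Erythroid markers were called lower at day 30 than at day 3 in 4 of 5 (median -6.88). The part of these markers in the differences was not tested. Il2rg was called without day 3 replicate 1 and with background as a term, and Il2rg and Cish with unscaled CPM.

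Both times were also set against naive blood, which is the same 3 libraries in each case. At day 30 Cish, Socs1 and Socs3 rose relative to blood, 3 of the 10 genes, where 0.676% of all genes were called higher and 0.711% in either direction. Socs1 was higher by 4.03 ± 1.01 (adjusted p = 0.0316), Cish by 3.62 ± 0.90 (adjusted p = 0.0274) and Socs3 by 3.38 ± 0.83 (adjusted p = 0.0253). These genes, Il2rb at 2.66 ± 0.80 (adjusted p = 0.109) and Jak3 lay above blood in all 3 day 30 libraries, where 7.35% of all genes did. Il15ra stood at 2.77 ± 0.95 (adjusted p = 0.211). Microglia markers were called higher at day 30 in 9 of 12 and monocyte and macrophage markers in 3 of 9, T cell markers in none of 10. Erythroid markers were called lower in 4 of 5 (median -8.05), with 0.000131% to 0.000348% of reads at day 30 and 0.0237% to 0.734% in blood, and the part of all these markers in the results was not tested. None of the 3 calls was kept without day 30 replicate 1 or without blood replicate 1, with background as a term or in the high background libraries alone, while edgeR called the same 3. Cish alone was called without blood replicate 2, and Socs3 was lost without day 30 replicate 3.

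At day 3 Socs3 alone rose relative to blood, by 3.80 ± 0.83 (adjusted p = 0.00375), 1 of the 10 genes, where 1.1% of all genes were called higher and 1.18% in either direction. It averaged 112 ± 84.4 CPM at day 3 and 5.33 ± 0.355 CPM in blood (SD, n = 3 each). Socs1 stood at 2.22 ± 1.01 (adjusted p = 0.513), and Socs3 and Il21r were the 2 genes wholly above blood, where 7.54% of all genes were. The Socs3 call was kept in edgeR, in DESeq2 and with background as a term, and was lost without day 3 replicate 1 and in the high background libraries alone. There both day 3 libraries, at 104 and 31.1 CPM, were still above all 3 blood libraries. Microglia markers moved with Socs3, 10 of 12 being called higher at day 3 than in blood, and 5 of 9 monocyte and macrophage markers, whose part in the result was not tested.

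**Figure D4:**
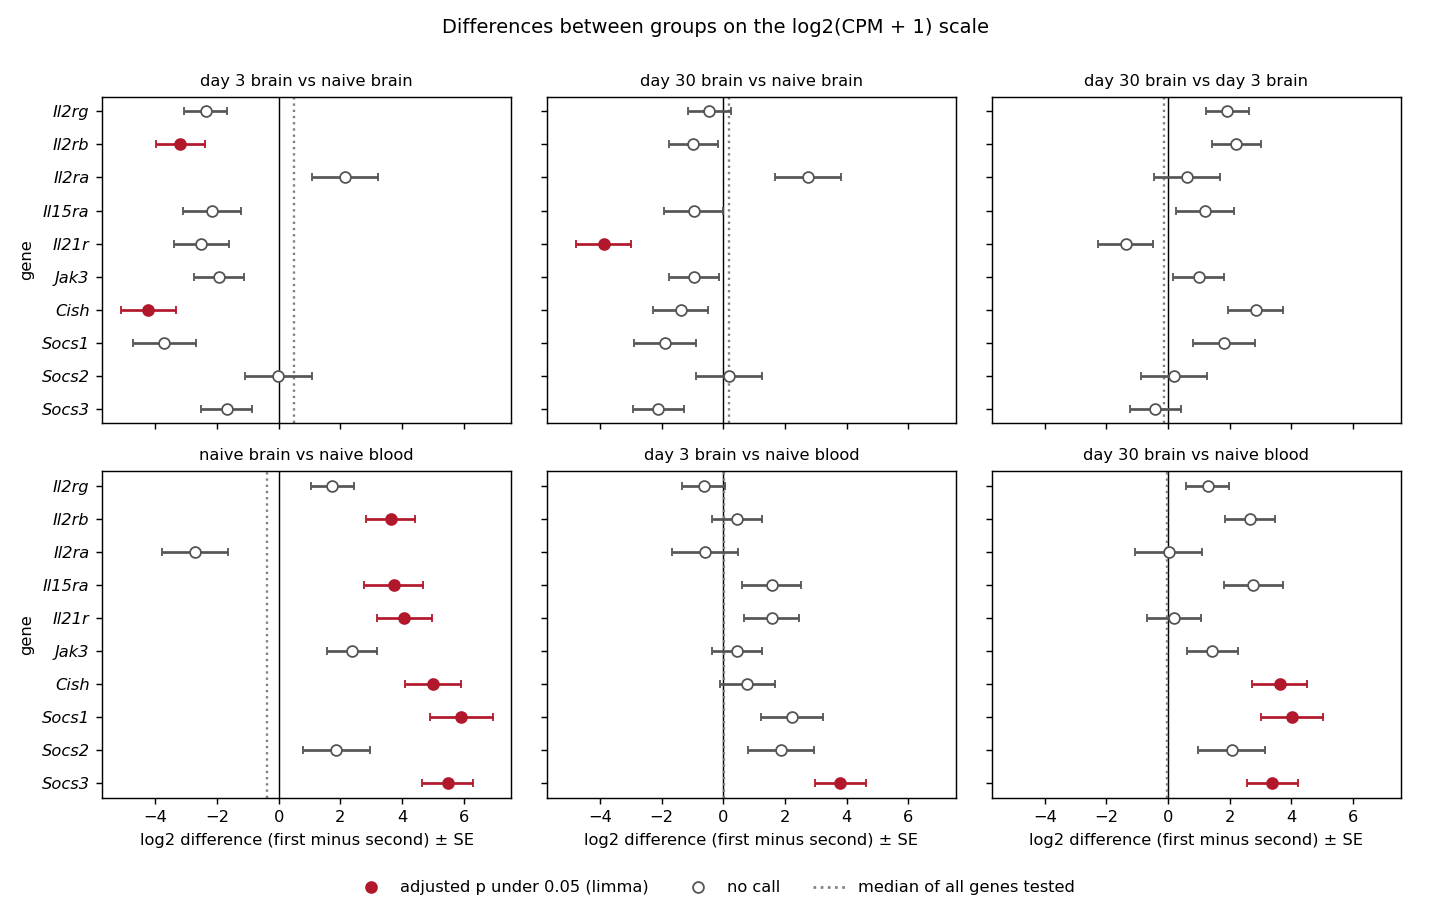
Differences between groups for the 10 genes in the 6 comparisons, as log2(CPM + 1) of the group named first minus the other (x axes), with SE bars. Red points had an adjusted p under 0.05 in limma, open points did not, and dotted lines are the medians over all genes tested. The 6 red points of naive brain against blood lie between 3.63 and 5.93.

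Other genes of the wider pathway went through the same test. Of 5 other receptor chains listed, 1 passed in any comparison. Crlf2, the thymic stromal lymphopoietin receptor, was higher in naive brain than in blood by 3.79 ± 1.09 (adjusted p = 0.0204). Its blood values are 6, 2 and 2 reads, so the last 2 lie under the detection limit. None of the 7 ligands, Il2, Il4, Il7, Il9, Il15, Il21 and Tslp, passed in any of the 6 comparisons. Of 13 kinases, STATs and other SOCS genes, Stat6, the IL-4 transducer, was higher in naive brain than in blood by 2.79 (adjusted p = 0.0158) and Stat3 by 2.19 (adjusted p = 0.0463). In that comparison 6.61% of all genes were called higher, and tissue cannot be told apart from background and depth. T cell, microglia and erythroid markers moved there too, and their part was not tested. Stat4, which signals for IL-12, fell at day 3 relative to naive brain, by 2.71 ± 0.71 (adjusted p = 0.0435). There 0.564% of all genes were called lower and 9 of 10 T cell markers fell, whose part was not tested.

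Genes known as induced by IL-2 or IL-15 included 8 of 19 called higher in naive brain than in blood and none lower, where 6.61% of all genes were higher and 7.59% were called in either direction. T cell, microglia and erythroid markers moved in the same comparison, their part was not tested, and background and depth cannot be told apart from tissue in it. The largest difference was that of Tnfrsf18 (4.22), the costimulatory receptor GITR, whose groups overlapped at 94.2, 315 and 323 CPM in naive brain, against 180.1, 1.65 and 2.11 CPM in blood. Next came Pim2 (4.02), a survival kinase, Gzmb (3.81), the killing enzyme granzyme B, and Myc (3.72), the growth regulator. At day 3, 5 of the 19 fell relative to naive brain, where 0.564% of all genes were called lower and 9 of 10 T cell markers fell (median -3.27), whose part was not tested. Among the 5, Ccnd3, a cyclin, fell by 3.70, Myc by 3.55 and Bcl2 by 3.21, and Pim2 averaged 12.9 CPM at day 3 and 240.4 CPM in naive brain (adjusted p = 0.0210). The median of the 19 was 2.24 in naive brain against blood and -1.47 at day 3 against naive brain, beside -0.37 and 0.50 over all genes. Bcl2, the survival factor that IL-15 sustains in memory T cells, had 944, 823 and 958 CPM at day 30, 222, 31.8 and 78.2 CPM at day 3, 387, 1128 and 1042 CPM in naive brain, against 484, 284 and 437 CPM in naive blood. Every day 30 library was above every day 3 and every blood library. Bcl2 was the 1 gene of the 19 called between day 30 and day 3, higher by 3.44 ± 0.69 (adjusted p = 0.00442), where 0.255% of all genes were called. T cell markers rose there too, 3 of 10 being called higher (median 2.75), and their part in the level of Bcl2 was not tested. At day 3 Osm, a cytokine of the IL-6 family, was higher than in blood by 4.08 (adjusted p = 0.0312), where 1.1% of all genes were called higher. Osm had 284, 30.5 and 10.7 CPM at day 3, against 0.541, 0.549 and 8.10 CPM in blood. Those blood values are 1, 1 and 23 reads, so the first 2 lie under the detection limit. Microglia and monocyte and macrophage markers rose there too, and their part was not tested. None of the 19 passed at day 30 against naive brain or blood.

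The genes most like each member were found as the smallest root mean square difference of centred log2 values over the 12 libraries, among 10784 genes with a mean of at least 10 CPM. Il2rb was closest to Ndfip1 (0.323) and Lcp2 (0.428), against a median of 1.73 over all genes. Jak3 was closest to Ganab (0.376) and Otud5 (0.440), Il2rg to S100a10 (0.389) and Sept6 (0.421), and Cish to Gimap7 (0.466) and Dusp2 (0.711). Il15ra was closest to Dcps (0.477), Socs3 to Pdf (0.563) and Lgmn (0.581), Socs1 to Ifitm10 (0.574) and Cxcr3 (0.740), Il2ra to Gpr126 (0.579), Il21r to Rin3 (0.623) and Socs2 to Enox2 (0.740). The 10 members were left out of the genes ranked, so how near they lie to each other was not examined. These values describe libraries that share depth and background, and carry no test.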

How the data were processed

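Sorted CD8 T cells gave RNA that was amplified by SMART-Seq v4, per the labels' protocols. FastQC 0.11.2, STAR 2.5.3a, featureCounts of Subread, edgeR and the mm10 build are named in the submitters' processing notes. The annotation, filters and strand setting are not stated in any source used here. Cish overlaps the antisense genes Gm17040 and Gm17041 and its reads cannot be told from theirs without strand. The authors deposited 1 table of signal, CPM of a scaled library size. Columns summed to 526580.2 to 2086823, and every value was a whole multiple of 1 read (100% to within 1e-06 reads), so reads were recovered. The kit adds no molecular identifiers. No 2 libraries were near-identical, with equal counts in at most 3.61% of genes.

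The test was limma 3.58.1 (R 4.3.3, empirical Bayes with trend, two-sided) on log2(CPM + 1) of all 12 libraries, over the 22352 genes that reached 1 CPM in 3 or more libraries. Within each of 6 comparisons p was adjusted over all genes by the Benjamini-Hochberg method, with a threshold of 0.05. The plan had taken the values for plain CPM, and the same test was used. Scripts were tested on simulated data. The median difference of all genes was 0.50, 0.19, -0.15, -0.37, 0.03 and -0.05 for the comparisons in this order: naive brain as the reference for day 3 and then day 30, day 3 as that for day 30, and blood as that for naive brain, day 3 and day 30. With unscaled CPM it was 1.13, 0.57, -0.45, -1.05, -0.06 and -0.44. Gene positions are from GENCODE vM21 and promoters from RefSeq. The 10 genes, the pathway and marker lists and the tests were chosen with earlier results of these data known. All 10 genes were named. A listed pathway gene was named where it passed, up to 4 per list by the largest difference, and Bcl2 in full. Trac and Trbc2 were not used here.

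Replicate numbers are from the labels. Deviations of same-numbered day 30 and day 3 libraries from their group means correlated at 0.530, 0.284 and 0.165. Day 30 replicate 2 with day 3 replicate 3 correlated at 0.214, and day 30 replicate 3 with day 3 replicate 2 at 0.180. Replicate 1 of both times had low and replicates 2 and 3 high background, so a pairing by number cannot be told apart from background. In the other comparisons same-numbered libraries correlated at -0.421 to 0.149. Alternatives were 2 other pseudocounts, 2 other filters, unscaled and quantile-normalized values, the 2 groups alone, edgeR 4.0.16 and DESeq2 1.42.0 on recovered reads, a replicate block and each library left out. Those on library background were added after seeing the data.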

Additional observations from a re-analysis of the deposited data

How the results depend on the processing

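The 10 genes in 6 comparisons gave 60 differences, of which 32 are printed. Of those, 2 changed sign, both with library background as a term, Il2rg (-0.70) and Socs2 (-0.62) in naive brain against blood. Of the 28 others 17 changed sign under an alternative and none ever passed. Counts of genes called were, as reported, 2 at day 3 and 1 at day 30 against naive brain, 0 between day 30 and day 3, and 6, 1 and 3 for naive brain, day 3 and day 30 against blood. Leaving out 1 library gave 0 to 4, 0 to 1, 0 to 1, 5 to 8, 0 to 1 and 0 to 3 in that order, with edgeR 0, 0, 0, 6, 1 and 3 and with DESeq2 2, 0, 0, 8 (7 higher, and Il2ra lower), 2 and 4. Over all genes, leaving out 1 library gave 22 to 666, 1 to 532, 26 to 115, 768 to 2124, 139 to 391 and 87 to 213 calls, against 160, 50, 57, 1696, 264 and 159 as reported. In the same order edgeR called 17, 6, 35, 1177, 286 and 143 of all genes. DESeq2 called 975, 225, 171, 3799, 569 and 287, and quantile normalization gave 56, 12, 134, 704, 601 and 179. A change in the count of the 10 genes therefore need not be particular to them. A pseudocount of 0.1 gave 1, 0, 0, 6, 1 and 2, a pseudocount of 5 gave 3, 1, 0, 7, 1 and 1, no filter 1, 0, 0, 6, 1 and 0, a stricter filter 2, 0, 0, 7, 1 and 3, unscaled CPM 2, 1, 2, 6 (5 higher, with Il15ra lost, and Il2ra lower), 1 and 3, quantile normalization 0, 0, 0, 4, 1 and 1, and the 2 groups alone 3, 0, 0, 7, 1 and 0. With the replicate block, whose numbers were not shown to pair libraries, the counts were 4, 1, 0, 8, 1 and 4, and no call between day 30 and day 3 changed. The alternatives on background were chosen after seeing the data. With background as a term the counts were 0, 0, 1, 0, 1 and 0, where 5, 0, 140, 35, 220 and 70 of all genes were called. High background libraries gave 0 in each of the 3 comparisons they allow. Of all genes they called 15 between day 30 and day 3, and 135 and 35 for day 3 and day 30 against blood. Low background libraries leave 1 library of day 30 and 1 of day 3, so they cannot decide. The causes were not tested. With 3 libraries a group and 12 blood reads of Socs1 in all, depth limits values near the detection limit.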
